A study of Arabidopsis thaliana with 6 samples.

Results

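The type-A Arabidopsis response regulators (type-A ARRs) are the 10 genes ARR3 to ARR9 and ARR15 to ARR17, which encode negative feedback regulators of the plant hormone cytokinin. They were chosen by locus identifier out of 37899 annotated nuclear genes. For each gene, every listed window was collected in a gene window that reached from 2500 bp upstream of the transcription start site (TSS) to 1000 bp past the gene end. The data were ChIP-seq window lists, in which DNA bound by a protein or a histone mark is pulled down from chromatin and sequenced. The genotype pUBI10::mCherry-GR-linker-WUS, called WUS-GR, carried the stem cell regulator WUSCHEL (WUS) joined to the red fluorescent protein mCherry and to the ligand-binding part of the glucocorticoid receptor (GR), which lets the fusion enter the nucleus once the steroid dexamethasone is given. The wild type Col-0, which has no transgene, served as control. Whole seedlings of both genotypes were used 5 days after germination, and per the labels both had received 25 µM dexamethasone for 2 h.

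RFP-trap, which binds mCherry, was used to find WUS-GR binding, and antibodies were used against histone H3 acetylated at lysines 9 and 14 (H3K9/K14ac, a mark of active genes) and trimethylated at lysine 27 (H3K27me3, the mark of Polycomb silencing). Each of the 3 pull-downs gave 1 list for WUS-GR and 1 list for Col-0, so there were 6 lists and no replicates. Windows of a WUS-GR list exceeded Col-0 in signal and are called bound for RFP-trap and gained for a histone mark. Those of a Col-0 list exceeded WUS-GR and are called lost for a histone mark. The lists held positions only, so that the depth behind a window is unknown, the strength of a site cannot be ranked, and no test between genotypes could be made. Counts over the type-A genes are therefore given beside the share of all 27444 protein-coding genes that meet the same rule, as a description.

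Several features limit the line as a model of the shoot stem cell niche. The ubiquitous pUBI10 promoter drives WUS in cells that normally lack it, the line is 1 single-insertion transgenic line, and DNA from several immunoprecipitations was pooled. In whole seedlings, a change in a share of the cells and a weaker change in all cells cannot be told apart. The lists hold no transcript levels, so the tissue could not be checked by markers. The ARR7 promoter has a special status here, since the authors used it as the qPCR control for enrichment before sequencing. Binding at ARR7 was therefore a quality criterion of the experiment and not an independent result.

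Cytokinin is sensed by histidine kinase receptors of the AHK family, which pass a phosphoryl group through AHP phosphotransfer proteins to response regulators in the nucleus. The type-B ARRs are transcription factors that then switch on target genes, among them the type-A ARRs, whose proteins consist of a receiver domain without a DNA-binding domain and damp the pathway. In the shoot apical meristem WUS and cytokinin promote each other, and ARR7 is a well known case of a cytokinin feedback gene repressed by WUS. The authors write of negative feedback regulators repressed by WUS in the plural, so ARR7 is not taken here as the only one. The 10 genes form 5 pairs of close relatives, and they are described below by pair.

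The stretches printed here all lay upstream of the TSS, and they illustrate the word counts below. What sequence the binding depends on was not tested. They are printed on the strand of the gene from 5′ to 3′, from the TAIR10.1 genome of RefSeq. Capitals mark CACGTG, the core of the G-box, and TTAATGG or TTAATCC, words known as WUS elements, on either strand. The ARR7 stretch lay at chr1:6579655-6579774 on the minus strand and wholly inside the WUS-GR region. The stretch at the same distance from the TSS of its unbound relative ARR15, chr1:28133366-28133485 on the minus strand, is shown for comparison and held none of the 3 words.
ARR7: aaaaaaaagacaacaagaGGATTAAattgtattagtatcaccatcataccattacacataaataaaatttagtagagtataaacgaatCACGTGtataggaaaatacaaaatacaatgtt
ARR15: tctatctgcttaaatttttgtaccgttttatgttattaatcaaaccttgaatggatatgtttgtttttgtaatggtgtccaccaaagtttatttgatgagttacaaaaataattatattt

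The pair ARR8 and ARR9 is shown because both relatives were bound and both gained acetylation. The ARR9 stretch, chr3:21108199-21108498 on the plus strand, came from the longest WUS-GR region found at any type-A gene and held 3 WUS element words. The ARR8 stretch, chr2:17220200-17220319 on the plus strand, came from its distal region and held 1. The proximal WUS-GR region of ARR8, which is not printed, held neither a WUS element word nor CACGTG.
ARR9: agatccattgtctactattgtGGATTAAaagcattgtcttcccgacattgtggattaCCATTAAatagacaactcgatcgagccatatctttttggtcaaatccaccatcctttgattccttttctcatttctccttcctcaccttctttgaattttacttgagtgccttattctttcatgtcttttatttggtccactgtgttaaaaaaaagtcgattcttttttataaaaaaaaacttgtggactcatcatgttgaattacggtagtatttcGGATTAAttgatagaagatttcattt
ARR8: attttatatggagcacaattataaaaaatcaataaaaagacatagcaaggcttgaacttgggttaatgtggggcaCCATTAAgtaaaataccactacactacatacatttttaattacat

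The ARR17 stretch, chr3:20904544-20904663 on the plus strand, lay in the proximal region of this gene and held 1 WUS element word. The ARR4 stretch, chr1:3444721-3444880 on the minus strand, lay in a WUS-GR region as well but held none of the 3 words, and is shown as the bound promoter without them.
ARR17: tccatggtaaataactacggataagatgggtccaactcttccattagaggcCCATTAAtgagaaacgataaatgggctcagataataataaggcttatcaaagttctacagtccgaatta
ARR4: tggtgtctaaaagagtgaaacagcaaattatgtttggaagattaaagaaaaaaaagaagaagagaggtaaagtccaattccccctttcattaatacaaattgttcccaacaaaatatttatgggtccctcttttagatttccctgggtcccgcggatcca

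WUS-GR bound 6 of the 10 type-A genes, namely ARR4, ARR7, ARR8, ARR9, ARR16 and ARR17, and left ARR3, ARR5, ARR6 and ARR15 without a window. By the same rule 38.1% of all protein-coding genes were bound, and 39.3% of those with a gene window between 4634 and 6541 bp, the range of the type-A genes. The counts of bound type-A genes here and below include ARR7, the enrichment control, whose binding was not an independent result. The bound genes held 63 of the 42402 WUS-GR windows of the genome, which merged into 14 regions. Their median length of 300 bp, within a range of 100 to 1300 bp, equalled the median of 300 bp over all 10087 WUS-GR regions. The Col-0 RFP-trap list of 706 windows, in which the tagged protein was absent, touched 0 of the 10 genes, against 2.39% of all protein-coding genes. When each region was given to a single gene by its midpoint, the same 6 type-A genes were called, beside 23% of protein-coding genes.

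**Figure D1:**
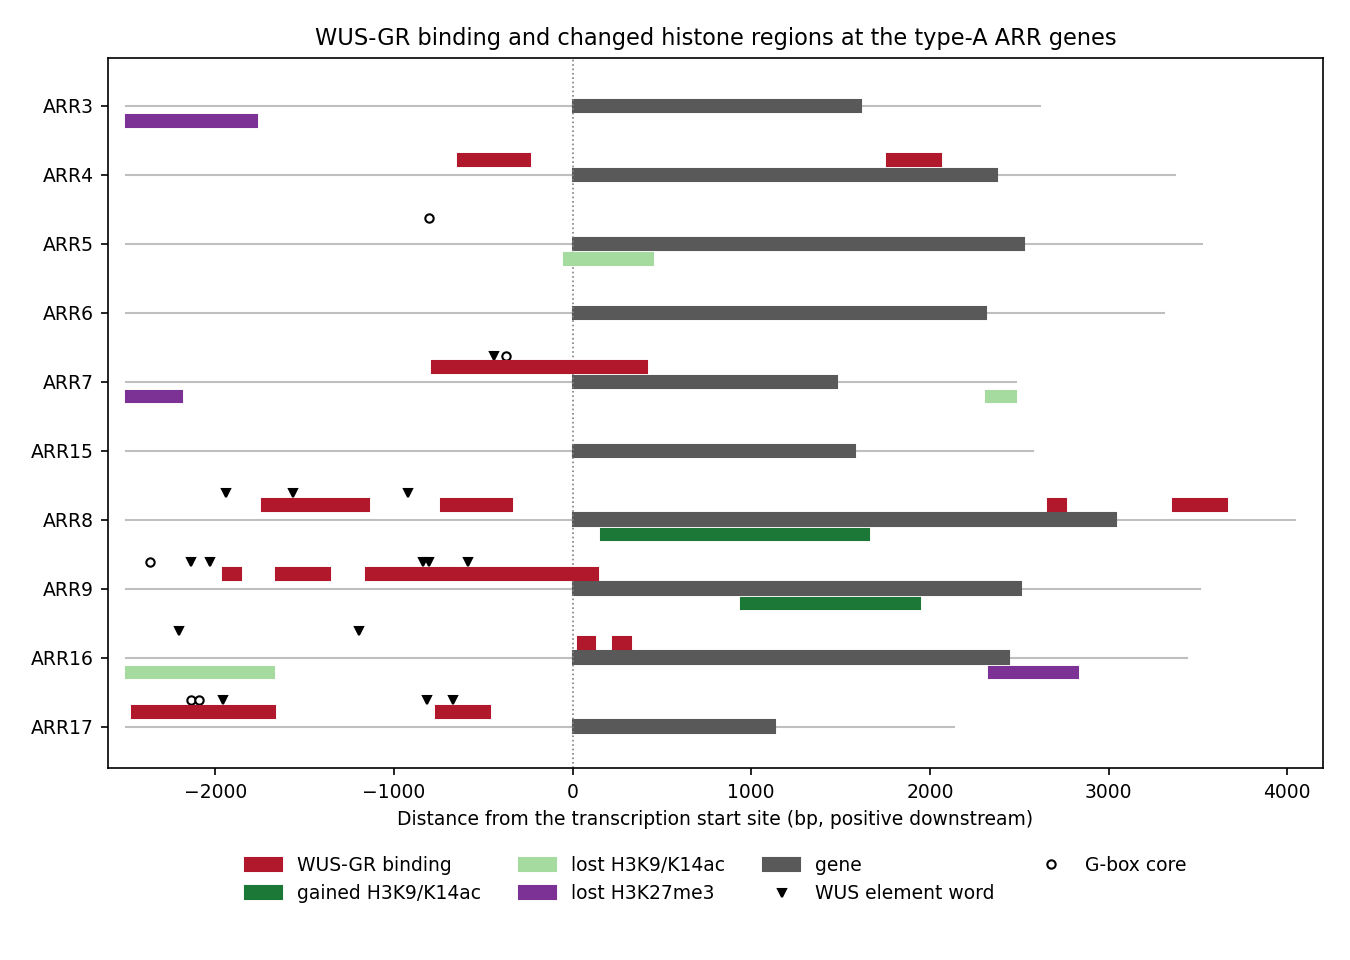
Position of listed regions in the gene window of each type-A ARR gene, drawn in the direction of transcription, with distance from the TSS in bp on the x axis and the 10 genes in their 5 pairs down the page. Red bars are WUS-GR regions, green bars are regions that gained (dark) or lost (light) H3K9/K14ac, purple bars lost H3K27me3, grey bars are genes and thin lines their windows. Triangles and circles mark the WUS element words and G-box cores found upstream of the TSS. Red bars stand at ARR4, ARR7, ARR8, ARR9, ARR16 and ARR17, and dark green bars only at ARR8 and ARR9.

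The 6 bound genes differed widely in how much of the gene window was covered. ARR9 had the widest coverage with 1700 bp, ARR8 had 1400 bp, ARR7 had 1200 bp, ARR17 had 1100 bp, ARR4 had 700 bp and ARR16 had 200 bp. Only 1.46% of protein-coding genes were covered at least as widely as ARR9, whereas 34.4% were covered at least as widely as ARR16. The low end of the bound genes was thus common in the genome and the high end was rare. Coverage counts every region in the gene window, for all genes alike. By midpoint, a region of 1300 bp at ARR9 was assigned to the RNA gene AT3G08815 and a region of 800 bp at ARR17 to AT3G56370. Over all 10 type-A genes the median coverage was 450 bp, and over all protein-coding genes, most of which were unbound, it was 0 bp. Over the 53 other cytokinin genes described below it was 245 bp, and over the 6 cytokinin response factor genes among them 750 bp. Coverage is a length and not a signal height, so that it does not rank the strength of binding.

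**Figure D2:**
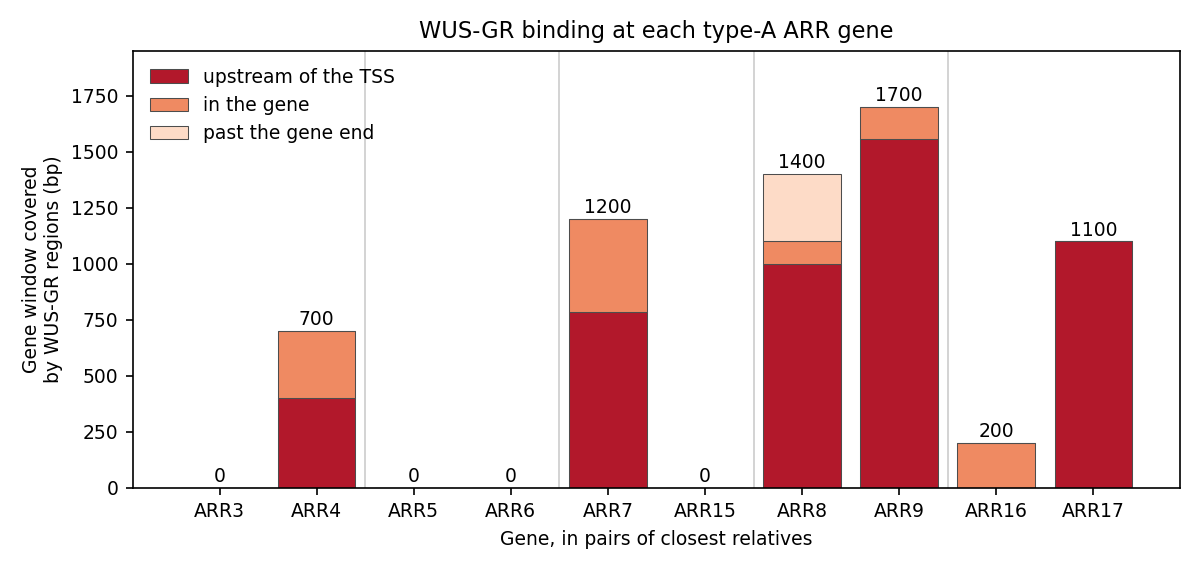
WUS-GR coverage of each type-A ARR gene window. Bars give the bp covered by WUS-GR regions, stacked by position upstream of the TSS, in the gene and past the gene end, with the genes ordered by pair on the x axis. ARR9 reached 1700 bp, mostly upstream of the TSS, and ARR3, ARR5, ARR6 and ARR15 had 0 bp.

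ARR7 (AT1G19050, chromosome 1, 6577833 to 6579314, minus strand) acts in the shoot meristem, where it is repressed by WUS and by auxin signaling. It had 12 adjacent WUS-GR windows that formed 1 region of 1200 bp (6578901 to 6580100). The region ran from -786 to 413 bp relative to the TSS, where negative distances lie upstream, and 3.23% of all WUS-GR regions were at least as long. ARR15 (AT1G74890, chromosome 1, 28131447 to 28133025, minus strand), the closest relative of ARR7, is likewise repressed by auxin signaling in the meristem. No window of any of the 6 lists fell in its gene window of 5079 bp. The nearest WUS-GR region had its midpoint at -5725.5 bp from the ARR15 TSS. The pair thus differed in its WUS-GR calls. Repression of either gene by WUS was not examined here, since the lists hold no transcript levels. Every position in either gene window was unique at the read length of 50 bases, and the printed stretches of ARR7 and ARR15 both had a GC content of 25%.

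ARR8 (AT2G41310, chromosome 2, 17221840 to 17224880, plus strand) and ARR9 (AT3G57040, chromosome 3, 21109059 to 21111567, plus strand) form the pair in which both relatives were bound over long stretches of promoter. In the RefSeq annotation ARR8 carries the symbol RR3, which is not ARR3. ARR8 had 14 WUS-GR windows in 4 regions, and 1000 of its 1400 covered bp lay upstream of the TSS. A distal region of 600 bp was centred at -1439.5 bp and a proximal region of 400 bp at -539.5 bp. Another region, of 100 bp, lay in the 3′ UTR and overlapped the long non-coding RNA gene AT2G09250. The last, of 300 bp, lay past the gene end beside the non-coding RNA gene AT2G41312. By midpoint, both of these regions were assigned to the RNA genes and not to ARR8.

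ARR9 had 17 WUS-GR windows in 3 regions, all of them centred upstream. The longest covered 1300 bp (21107901 to 21109200), from -1158 to 141 bp relative to the TSS, and 2.34% of all WUS-GR regions were at least as long. It contained the long non-coding RNA gene AT3G08815, to which its midpoint was assigned, so that this region has more than 1 candidate gene. The smaller regions of 300 bp and 100 bp were centred at -1508.5 and -1908.5 bp. All of the 1000 bp next to the TSS of ARR9 was covered, against 786 bp in ARR7 and 400 bp in both ARR8 and ARR4.

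ARR4 (AT1G10470, chromosome 1, 3441988 to 3444360, minus strand) is known to interact with the light receptor phytochrome B. It had 7 WUS-GR windows in 2 regions, 1 of 400 bp in the promoter (3444601 to 3445000, centred at -440.5 bp) and 1 of 300 bp in the 3′ UTR (3442301 to 3442600). ARR3 (AT1G59940, chromosome 1, 22065617 to 22067233, minus strand), which acts with ARR4 in the circadian clock, had no WUS-GR window. Its nearest WUS-GR region was centred 9882.5 bp downstream of the TSS. As with ARR7 and ARR15, 1 relative was bound and the other was not.

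ARR16 (AT2G40670, chromosome 2, 16969673 to 16972113, plus strand) and ARR17 (AT3G56380, chromosome 3, 20905264 to 20906397, plus strand) are annotated as RR16 and RR17 and are known from the stomatal lineage. ARR16 had just 2 WUS-GR windows, each a region of its own, centred 77.5 and 277.5 bp downstream of the TSS in the 5′ UTR. These 100 bp regions are as short as the list allows, and ARR16 had the lowest share of unique positions of the 10 genes, with 94.5%. ARR17 had 11 WUS-GR windows in 2 regions, both upstream of the TSS. The proximal region of 300 bp was centred at -613.5 bp and the distal region of 800 bp at -2063.5 bp, where it overlapped the neighbouring gene AT3G56370 and was assigned to it by midpoint. Both genes of the pair were bound, but at no position in common.

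ARR5 (AT3G48100, chromosome 3, 17758427 to 17760950, minus strand, annotated as RR5) and ARR6 (AT5G62920, chromosome 5, 25252007 to 25254318, minus strand) are induced by cytokinin within minutes, and the ARR5 promoter is a standard cytokinin reporter. Neither relative had a WUS-GR window. The nearest WUS-GR region was centred 10399.5 bp downstream of the TSS of ARR5, and 3817.5 bp downstream of that of ARR6, at the neighbour AT5G62910. At the read length used, 100% of positions were unique in the gene windows of ARR5 and ARR6, as in 6 other type-A genes, and 98% in that of ARR8.

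WUS-GR regions at the type-A genes were centred mostly upstream of the TSS. Of the 14 regions, 9 were centred upstream of the TSS, 4 in the gene and 1 past the gene end, and 7 lay within 1000 bp of the TSS. Their midpoints had a median distance of -474.5 bp, within a range of -2063.5 to 3510.5 bp. Over the 15895 pairs of a WUS-GR region and a protein-coding gene the median was -146.5 bp. Most pairs over the genome were thus centred upstream as well, so an upstream position was not particular to the type-A genes. In the 1000 bp upstream of the TSS, 5 of the 10 type-A genes were bound (ARR4, ARR7, ARR8, ARR9 and ARR17), against 21.5% of protein-coding genes. ARR16 was the bound gene without coverage there.

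In bins of 100 bp, the bin from -600 to -500 bp was covered in 5 of the 10 type-A genes, or 50%, against 6.05% of protein-coding genes. From -700 to -300 bp each bin was covered in at least 4 genes. Over all protein-coding genes the maximum was 11.6%, in the bin that ends at the TSS, where 2 type-A genes were covered. With 10 genes, 1 gene moves a bin by 10 percentage points, and adjacent bins share regions, so that the profile describes these genes only.

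**Figure D3:**
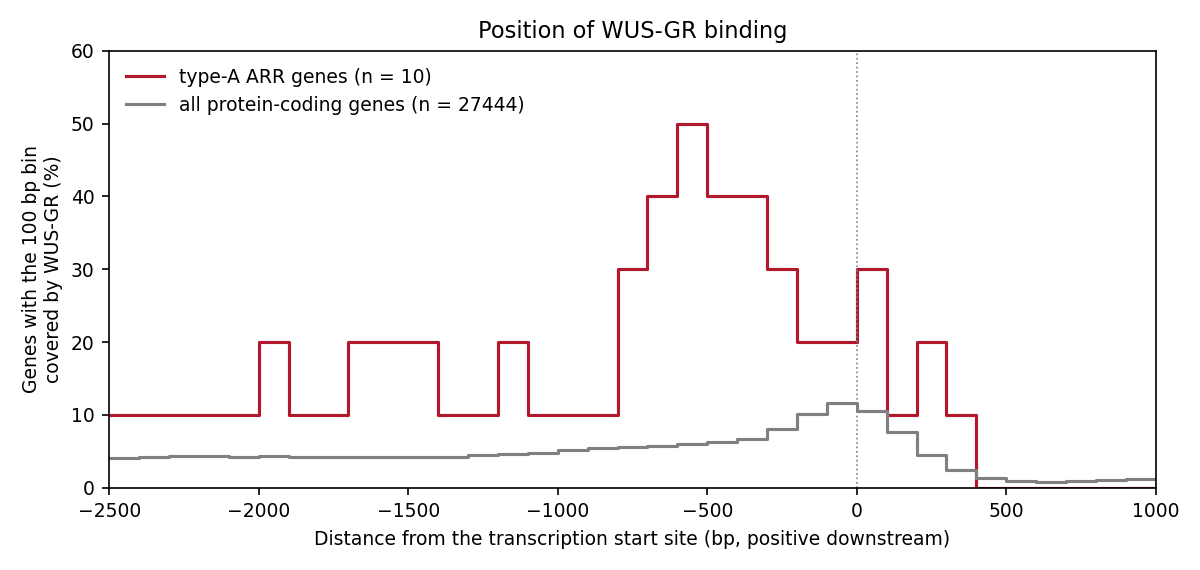
Position of WUS-GR binding relative to the TSS. The y axis gives the percentage of genes in which at least 50 bp of a 100 bp bin was covered, for the 10 type-A ARR genes (red) and for all 27444 protein-coding genes (grey), and the x axis gives the distance from the TSS in bp. The red line peaks at 50% between -600 and -500 bp, and the grey line at 11.6% just upstream of the TSS.

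The likeness of binding patterns was measured by the Jaccard index, the share of the bins covered in either gene that were covered in both. The bins ran from 2500 bp upstream to 1000 bp downstream of the TSS. Regions farther downstream, as in the 3′ UTR of ARR4 and ARR8 and past the end of ARR8, were therefore left out. ARR7 and ARR9, from different pairs, were the most alike with 0.450, or 9 of 20 bins. ARR8 and ARR9 followed with 0.421, or 8 of 19 bins, whereas ARR16 and ARR17 shared 0 of 13 bins. Close relatives were thus not always the most alike in binding around the TSS, although the values of ARR7 and ARR8 with ARR9 lay close together. Among the other cytokinin genes, the patterns most like those of the 6 bound type-A genes were found at CKX5 (0.352), which encodes a cytokinin-degrading oxidase, at the cytokinin response factor gene CRF4 (0.336) and at CKX6 (0.332), another oxidase gene, as mean Jaccard indices.

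Changed histone regions were listed in the gene windows of ARR3, ARR5, ARR7, ARR8, ARR9 and ARR16. Of the 14 WUS-GR regions at type-A genes, 0 overlapped a gained or lost region of either mark, beside 10.5% of all WUS-GR regions, and whether these shares differ was not tested. A gain of H3K9/K14ac was listed at 2 of the 10 genes, ARR8 and ARR9, beside 33.1% of protein-coding genes, so that the share of 20% did not exceed the background. Both gains were centred in the coding sequence. The ARR8 gain covered 1500 bp (17222001 to 17223500), from 161 to 1660 bp downstream of the TSS, and 7.65% of gained regions were at least as long. The ARR9 gain covered 1000 bp (21110001 to 21111000), from 942 to 1941 bp downstream of the TSS. The distance from the gain to the nearest WUS-GR region was 500 bp at ARR8 and 800 bp at ARR9.

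Both gains also held when regions were assigned by midpoint, where 17.9% of protein-coding genes were called. ARR8 and ARR9, 2 of the 10 genes, were thus the type-A genes with WUS-GR binding and gained acetylation, beside 14.6% of protein-coding genes. They are close relatives, and in the gene window they had the widest coverage of the bound genes. That ranking counts regions assigned by midpoint to RNA genes, among them the 1300 bp region of ARR9. Whether coverage and gain go together was not tested. No expression data were used here, so whether these gains went along with transcription was not tested.

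Loss of H3K9/K14ac was listed at 3 type-A genes, ARR5, ARR7 and ARR16, beside 28.8% of protein-coding genes. By midpoint only ARR5 remained, beside 15.9%. At ARR5 the lost region of 500 bp (17760501 to 17761000) spanned the TSS, from -50 to 449 bp, in a gene without WUS-GR binding. At ARR7 a lost region of 500 bp reached 168 bp into the gene window and was centred in the neighbouring gene AT1G19040. At ARR16 a lost region of 1000 bp lay upstream, centred at -2172.5 bp in the neighbour AT2G40660. The combination of WUS-GR binding and lost acetylation was met by ARR7 and ARR16, 2 of 10 genes, beside 13.2% of protein-coding genes, and in both the loss was centred outside the type-A gene.

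ARR7 had a long WUS-GR region and no listed change of acetylation at its promoter or in its gene. The nearest changed histone region was 1400 bp from the WUS-GR region. Past the end of ARR5, a gained and a lost acetylation region of 1000 bp each adjoined and were assigned to the neighbouring gene EDS1 (AT3G48090), an immune regulator. Both were removed because they lay closer than 73 bp to each other.

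H3K27me3 was gained at 0 of the 10 type-A genes, beside 3.88% of protein-coding genes. It was lost in the windows of ARR3, ARR7 and ARR16, 3 of 10 genes, beside 14.2%. In all of these the lost region was centred in or next to another gene, so that midpoint assignment left 0 of 10, beside 7.29%. The region of 2000 bp near ARR3 was centred at -2767.5 bp in AT1G59950, and the region of 1500 bp near ARR7 at -2936.5 bp in AT1G19060. The region of 500 bp near ARR16 was centred at 2577.5 bp, past the gene end and assigned to the pseudogene AT2G40680. ARR4, ARR6, ARR15 and ARR17 had no changed histone region of either mark in their windows.

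**Figure D4:**
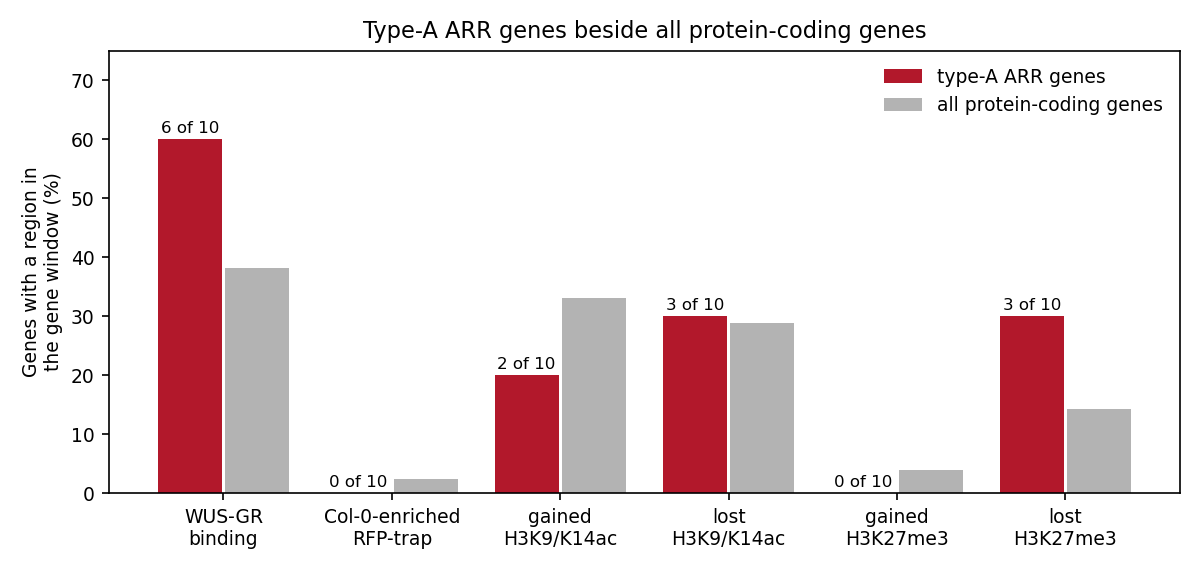
Share of the 10 type-A ARR genes (red) and of all 27444 protein-coding genes (grey) with a listed region in the gene window, in percent, for each of the 6 lists on the x axis. WUS-GR binding stood at 6 of 10 against 38.1%, gained H3K9/K14ac at 2 of 10 against 33.1%, and lost H3K27me3 at 3 of 10 against 14.2%.

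Both word classes printed in capitals above were then counted in the 1000 bp upstream of every TSS, on both strands. TTAATGG or TTAATCC occurred upstream of ARR7, ARR8, ARR9 and ARR17, which are 4 of the 6 bound genes, and upstream of 0 of the 4 unbound genes. Of all protein-coding promoters, 30.6% held either word. That share was not split by binding, so whether the words go with binding was not tested. TTAATGG alone occurred in 3 type-A promoters (ARR8, ARR9 and ARR17) and 19.6% of all promoters, and TTAATCC in 2 (ARR7 and ARR9) and 14% of all promoters. The words were not always inside a region. The ARR8 copy at -922 bp, through which its promoter was counted, and the ARR17 copy at -816 bp were outside. At ARR16 the copies at -1194 and -2200 bp lay far from its binding in the 5′ UTR.

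In the central 300 bp of a WUS-GR region, or the whole region where it was shorter, either word was found in 4 of the 14 regions at type-A genes, or 28.6%, against 9.01% of all 10087 regions. These were the distal region of ARR8, the longest region of ARR9 and both regions of ARR17. TTAATGG was found in 3 of the 14 regions, against 6.07% of all regions. Without ending the stretch at the region, either word was found in 5 of the 14, against 10.2%, because the 300 bp around a 100 bp region of ARR9 took in a copy at -2029 bp that no region covered. The ARR9 stretch printed above held words at -839, -803 and -586 bp, and the ARR7 stretch held TTAATCC at -442 bp and CACGTG at -372 bp. Of these, only the ARR9 copy at -586 bp lay in the central 300 bp of its region, so the ARR7 words were not counted. These counts rest on 14 regions of 6 genes, several of which share a gene, and a match of letters is not a binding site.

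The G-box core CACGTG occurred in the promoters of ARR5 and ARR7, so in 1 unbound and 1 bound gene, and in 14.8% of all promoters. In the central part of the regions it was found in 3 of 14, or 21.4%, against 17.3% of all WUS-GR regions. These were the 3′ UTR region of ARR4, the region past the end of ARR8 and the distal region of ARR17. The word TGAATGAA, a repeat bound by WUS in vitro, occurred in the ARR6 promoter only, against 8.45% of all promoters, and in 0 of the 14 regions, against 3.64% of all regions. Words bound by the type-B ARRs were common in these promoters and elsewhere. AGATT occurred in all 10 promoters and in 98.2% of all promoters, and GGATT in 8 (6 bound and 2 unbound) and in 86.1%. The shorter GGATT is contained in the reverse complement of the second WUS element word, so these counts are not separate from each other. The longer word AGATCT occurred upstream of ARR3, ARR5, ARR6 and ARR7, or 1 bound and 3 unbound genes, against 24.8% of all promoters, and the word AGATACG, which shares its first letters with AGATT, was found upstream of none, against 6.02%.

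To place the type-A genes in their pathway, 53 other cytokinin genes were examined by the same rule. WUS-GR bound 6 of 10 type-A genes, against 29 of these 53 genes, or 54.7%, so the share in the type-A group was close to that of the pathway as a whole. Of the 11 type-B genes 4 were bound, or 36.4%, and of the 2 type-C genes, which encode regulators outside both other classes, 0 were bound. Of the 6 cytokinin response factor (CRF) genes 6 were bound, and of the 18 genes for cytokinin synthesis 11 were bound. Of the 7 cytokinin oxidase genes 4 were bound, namely CKX4, CKX5, CKX6 and CKX7, which are named after their values were seen. Lists of this size allow no ranking of the groups, and no test was made.

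**Figure D5:**
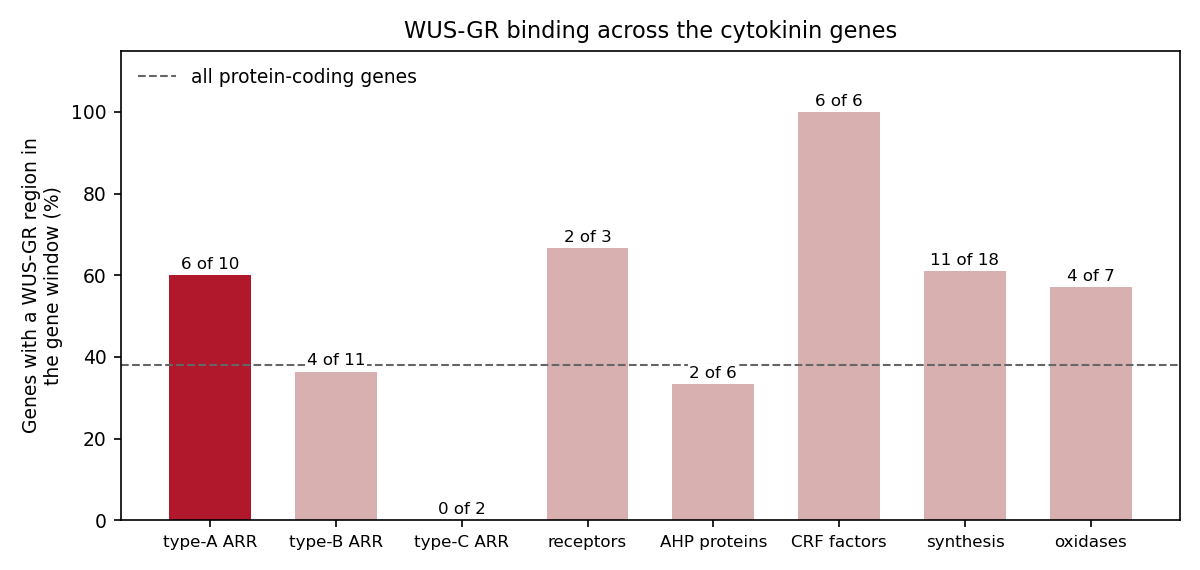
WUS-GR binding in the type-A ARR genes (dark red) and in the other groups of cytokinin genes (light red), as the percentage of genes with a WUS-GR region in the gene window. The dashed line marks all protein-coding genes at 38.1%, and the numbers above the bars give genes bound of genes examined, from 6 of 6 CRF genes to 0 of 2 type-C genes.

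Upstream of the type-A genes in the pathway, WUS-GR bound the receptor genes AHK3 and AHK4 of 3 receptor genes, and AHP4 and AHP6 of 6 AHP genes. AHP6, an inhibitory pseudo-phosphotransfer protein, is named after its values were seen. AHK3 (AT1G27320) had 3 WUS-GR regions covering 1700 bp. Unlike at the type-A genes, its region at -138.5 bp (9486301 to 9487200) contained a region of lost H3K27me3 (9486501 to 9487000), and lost acetylation was listed in its 5′ UTR, its coding sequence and past its end. Acetylation was also gained in 2 regions upstream of AHK3, and 1 of them (9485501 to 9486000) overlapped another WUS-GR region (9485801 to 9486100). By midpoint only the WUS-GR region at -138.5 bp was assigned to AHK3, and the others to the neighbours AT1G27310 and AT1G27330. Both gains were assigned to AT1G27300 and AT1G27310, and the acetylation loss past the gene end to AT1G27330. AHK4 (AT2G01830), known from the development of the root vasculature, had 1 WUS-GR region of 300 bp in an intron and lost acetylation over 500 bp of another part of the gene. AHP4 (AT3G16360) had a WUS-GR region of 400 bp, which was assigned by midpoint to AT3G03295. It also had 1500 bp of lost H3K27me3, of which a region of 500 bp was assigned to AT3G03285.

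Among the type-B genes, whose products activate the type-A genes, ARR1 was the bound gene with regions upstream of the TSS. ARR1 (AT3G16857) had WUS-GR regions of 200 bp at -313.5 and -1813.5 bp, gained acetylation over 1000 bp of an intron and lost acetylation over 500 bp at -2463.5 bp. In ARR10 (AT4G31920), ARR18 (AT5G58080) and ARR20 (AT3G62670) the WUS-GR region lay past the gene end, centred 3241.5, 2818.5 and 2693.5 bp downstream of the TSS. In all of these 3 genes the region was assigned to a neighbour. As at AHK3, the ARR10 region overlapped a region of lost H3K27me3 (15443001 to 15444000), and ARR10 also had gained and lost acetylation. The ARR18 region lay inside a region of gained acetylation (23500001 to 23501500). Both of these histone regions were assigned to the same neighbours. ARR20 had 1500 bp of lost H3K27me3 centred in an intron, away from its WUS-GR region. Gained acetylation was listed at 2 of the 10 type-A genes and 6 of the 11 type-B genes, beside 33.1% of all protein-coding genes. Lost acetylation was listed at 3 of the type-A genes and 4 of the type-B genes, beside 28.8%. Neither difference between the classes was tested.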

How the data were processed

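Per the labels and the study's methods, the authors sequenced single-end reads of 50 bases from pooled immunoprecipitations, mapped them to TAIR10 with BWA 0.7.17 and compared WUS-GR with Col-0 by hiddenDomains 3.0 in windows of 100 bp (RFP-trap) or 500 bp (histone marks). The deposited lists give the positions of windows past the authors' posterior threshold, 86611 in 6 lists, with no score and no read count. The labels give 25 µM dexamethasone and the study's methods a lower concentration, and the label was followed.

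With Python 3.11.15, adjacent windows were merged into regions, and gained and lost regions of a mark closer than 73 bp were removed, as the study's methods state. Gene models were those of RefSeq for TAIR10.1, whose chromosome ends fit the lists, and all 10 loci matched. A gene was called from 1 bp of overlap with its gene window, or by region midpoint (containing gene, then nearest TSS within 2500 bp downstream, then gene end within 1000 bp). Words in regions were counted in the central 300 bp, ended at the region's own ends, a choice made after the counts were seen. A profile bin counted as covered from 50 bp. Other cytokinin genes were named where they combined a WUS-GR region with a changed histone region (receptor, AHP and type-B genes) or had 1 of the 3 most similar profiles. Members, lists, words and rules were chosen with earlier results of these data known. Scripts were tested on simulated lists. Each group had 1 list, so no test, interval or error is given.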

Additional observations from a re-analysis of the deposited data

How the results depend on the processing

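Of 32 alternatives over 8 results, 27 were counted as the same as the main setting and 5 as moved. No interval stands behind a count, and the same took in 5 beside 6 genes and 2 beside 3. It also took in a median distance of -313.5 beside -474.5 bp. The median stayed negative in each setting, and a count has no direction to reverse. The count of type-A genes with lost H3K9/K14ac, 3 in the gene window, was 1 from 1000 bp upstream of the TSS to the gene end, 1 by midpoint (ARR5 in both) and 1 with regions of at least 1000 bp (ARR16, whose region is centred in a neighbouring gene). The count with lost H3K27me3, also 3, was 1 from 1000 bp upstream to the gene end (ARR16, whose region overlaps the gene end) and 0 by midpoint. WUS-GR binding was called at the same 6 genes with the shorter gene window, by midpoint and from 200 bp of coverage, and at 5 with regions of at least 300 bp, where ARR16 was lost. Gained H3K9/K14ac stood at 2 genes, and at 3 when all deposited windows were kept, which added the region next to ARR5. The median distance of WUS-GR regions was -440.5 bp within 1000 bp of the TSS and -313.5 bp when windows up to 500 bp apart were merged. No paired analysis was possible because a genotype had a single list per pull-down. Depth is unknown, so a gene without a window may lie just below the threshold.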
